A study of Homo sapiens with 6 samples.

Results

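The genes described here encode the enzymes that attach glucuronic acid, sulfate or glutathione to lipophilic compounds. They were chosen by array gene name, as every name that starts with UGT1A, UGT2, SULT, GSTA, GSTM, GSTP, GSTT, GSTO, GSTK, GSTZ or MGST. The rule found 42 of the 16987 named genes on the array, read by 58 of 41000 probes. They comprised 11 UDP-glucuronosyltransferases (UGT), 11 cytosolic sulfotransferases (SULT), 17 soluble glutathione transferases (GST) and 3 microsomal glutathione transferases (MGST).

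Expression was measured in HepG2, an established human hepatoma cell line, on 6 Agilent arrays of a single colour. RNA came from control cells and from cells kept with Scutellaria baicalensis extract (100 µg/ml) for 1, 3, 6, 12 or 24 h, and the design asks how expression depends on exposure time. Each of the 6 groups held 1 array, so replicate spread is unknown and differences at single times were not tested. When the control was harvested is not in the labels, and all groups grew in the same medium with fetal bovine serum.

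Conjugation is the step at which the liver turns drugs, hormones, bile acids and plant phenols into polar products for export. UGT enzymes sit in the endoplasmic reticulum and use UDP-glucuronic acid, SULT enzymes use the activated sulfate PAPS in the cytosol, and glutathione transferases add the tripeptide glutathione to electrophiles. Scutellaria root is rich in flavones such as baicalein, which are known substrates of glucuronidation and sulfation, and flavonoids as a class include ligands of the aryl hydrocarbon receptor, a known regulator of UGT1A6.

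Several of these genes are close copies, so what a probe reads depends on its bases. Of the 58 probes, 45 listed transcripts of 1 gene, 11 listed transcripts of at least 2 genes and 2 listed none that the gene table held. The following probe sequences, taken from the array files, carry the main results. Their coordinates are those in the files, and the genome build is not given in the sources used here. The first is the dimmer UGT1A6 probe at chr2:234458521-234458580 on the plus strand, which lists transcripts of UGT1A6, UGT1A8, UGT1A4 and UGT1A1. The second is the UGT1A8 probe, whose ends lie at chr2:234309167-234457697 because it spans a splice junction. It lists UGT1A8, UGT1A10, UGT1A9 and UGT1A7. The next lines are the brighter GSTA2 probe at chr6:52724354-52724413 and the GSTA5 probe at chr6:52805636-52805695, both on the minus strand, with capitals at the 4 bases by which they differ. The last is the SULT1E1 probe at chr4:70888495-70888554 on the minus strand.
UGT1A6: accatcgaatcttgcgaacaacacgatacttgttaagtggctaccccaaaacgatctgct
UGT1A8: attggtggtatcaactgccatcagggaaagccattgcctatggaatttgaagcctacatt
GSTA2: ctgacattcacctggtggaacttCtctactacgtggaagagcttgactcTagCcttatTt
GSTA5: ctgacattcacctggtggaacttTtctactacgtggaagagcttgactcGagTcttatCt
SULT1E1: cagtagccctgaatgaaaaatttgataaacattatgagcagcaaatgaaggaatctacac

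Both UGT1A6 probes lie beyond the UGT1A8 junction, in the exons that UGT1A isoforms share, so their signal cannot be assigned to UGT1A6 alone. The GSTA2 and GSTA5 probes match at 56 of 60 bases, and a signal on either can include the other's transcript. The UGT2B17 and UGT2B10 probes overlap by 46 bases with 8 mismatches. The 2 names SULT1C1 and SULT1C2 on the array stand for the genes now called SULT1C2 and SULT1C4, and the array names are kept below.

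Levels are log2 signals relative to the 75th percentile of the same array, so a level of 0 equals that percentile, and levels of different probes cannot be set against each other. A difference is the level on an extract array minus the level on the control array, on the log2 scale. A gene was taken as measured at a time when its brightest probe was well above background and not saturated on both arrays, and differences of at least 2-fold were counted. The arrays differed in brightness. Their 75th percentiles were 768 units for the control and 1090, 1900, 153, 420 and 1640 units at 1, 3, 6, 12 and 24 h, and 49.5% of probes were well above background at 6 h against 64.4 to 73.2% on the other arrays. The error of 1 probe's difference, an SD taken from genes with a pair of measured probes, was 0.371, 0.471, 0.782, 0.685 and 0.691 at 1, 3, 6, 12 and 24 h. It leaves out variation between cultures and arrays. All 9 hepatocyte markers were well above background on every array, but ALB and TF were saturated on all 6 and SERPINA1 on 5. Of the 4 endothelial markers 1 or 2 were, of the 5 fibroblast and stellate markers 0 to 2, of the 5 haematopoietic markers 3 to 5 and of the 4 biliary markers 2. KRT7, CFTR, CDH5, KDR, COL1A1, DES and LUM were not well above background on any array. The biliary markers KRT19 and EPCAM, the endothelial marker VWF and the haematopoietic markers CD79A, CD68 and LYZ were on all 6.

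Among the 42 genes, 32 were well above background on all 6 arrays, 39 on at least 3 and 0 on none. In a bulk sample, fewer cells with a transcript and less of it per cell cannot be told apart. No measured member differed by at least 2-fold on its brightest probe at 1 h or 3 h. SULT1E1, which was not measured on any extract array, is given below by bounds. Of the genes measured at 1 h, 2.24% passed that size upward and 0.672% downward, and at 3 h the shares were 3.04% and 3.1%. At 6 h, 5 members out of 32 passed it upward and 1 downward, against 23.2% and 10% of all genes. At 12 h, 3 of 36 were higher and 2 lower, against 12.6% and 8.08% of all genes. At 24 h, 1 of 39 was higher and 8 were lower, against 7.03% and 9.56% of all genes. The share of members that were lower at 24 h was 20.5%, and their share that were higher at 6 h was 15.6%.

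The median difference of the measured members was -0.13, -0.07, 0.36, 0.07 and -0.44 at 1, 3, 6, 12 and 24 h. The same median over all measured genes was -0.06, -0.05, 0.35, 0.21 and 0.01. Members lay close to all genes up to 6 h, and 29 of 39 were below 0 at 24 h. These shares depend on the scaling. Under quantile normalization, 14.4% of all genes were higher and 11.7% lower at 6 h, 8.36% and 8.89% at 12 h, and 8.69% and 7.85% at 24 h, with all-gene medians of 0.15, 0.12 and 0.10. The member median at 24 h was then -0.18.

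**Figure D1:**
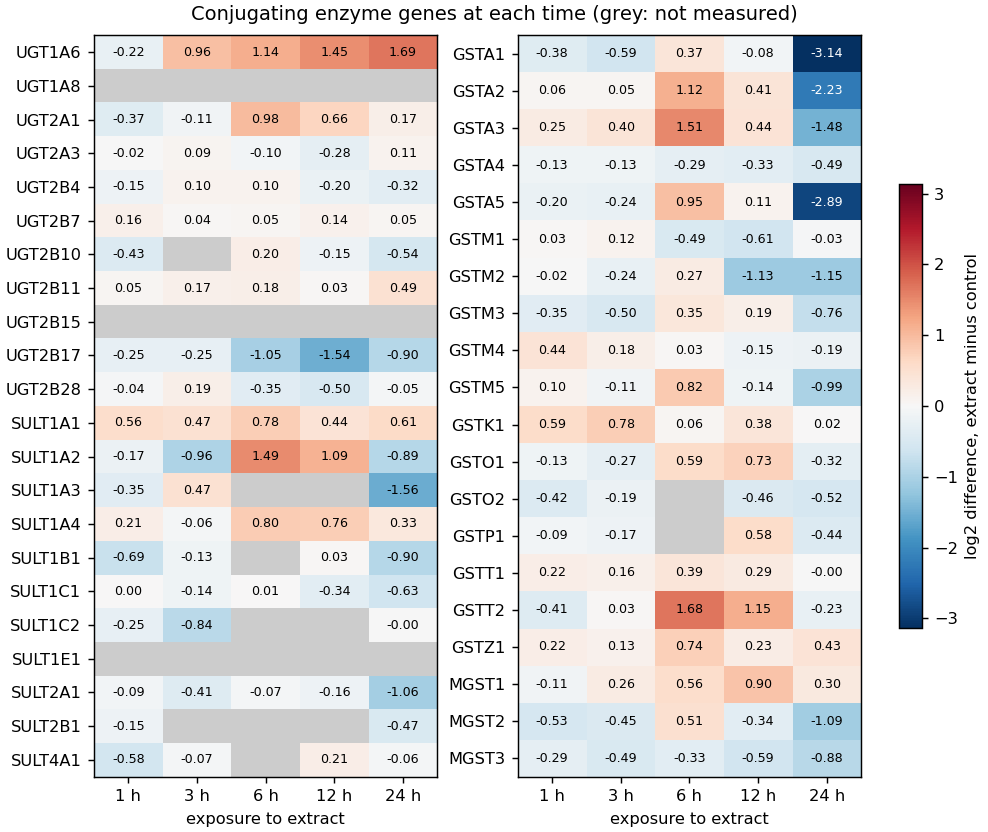
Log2 difference of each of the 42 genes, extract minus control, at 1, 3, 6, 12 and 24 h, for the brightest probe of a gene. Red is higher and blue lower on the extract array, and grey marks a gene not measured on both arrays. UGT1A6 is red in 4 of 5 columns, and the darkest blue cells are GSTA1, GSTA5 and GSTA2 at 24 h.

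**Figure D2:**
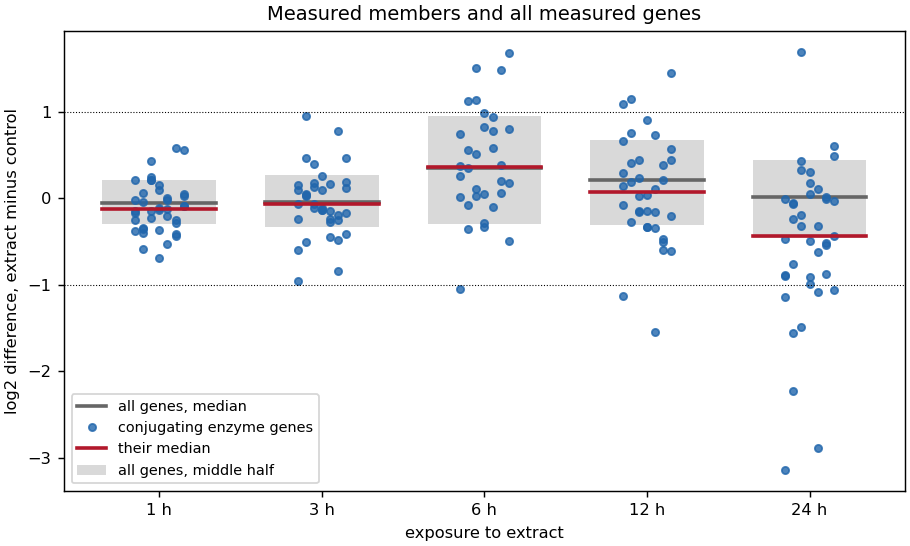
Log2 differences of the measured members at each time (points, red line at their median) over the interquartile range (grey) and median (grey line) of all measured genes. Dotted lines mark a 2-fold difference. At 24 h the member median of -0.44 lies near the lower edge of the grey box, and the point at 1.69 is UGT1A6.

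UGT1A6, which glucuronidates small planar phenols, was the only member at least 2-fold higher at 3 times. Its brighter probe stood at -1.78 on the control and at -2.01, -0.83, -0.64, -0.33 and -0.09 at 1, 3, 6, 12 and 24 h. The first hour was level with the control within the error, and every later array was higher than both. The differences were -0.22, 0.96, 1.14, 1.45 and 1.69, and the level at 24 h was 3.23-fold that of the control. The dimmer probe, whose sequence is printed above, gave 0.33, 2.13, 2.04 and 2.67 at 1, 3, 12 and 24 h. It was not well above background at 6 h, on the dimmest array. When the probes were averaged, UGT1A6 was 0.85 at 6 h, below 2-fold, and 1.74 and 2.18 at 12 and 24 h.

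The trend over exposure time was tested with limma as a slope of the level on log2(hours + 1) over all 6 arrays, with the control placed at 0 h by assumption. The UGT1A6 line gained 1.98 ± 0.44 (SE, 6 arrays) between 0 and 24 h, with an adjusted p of 0.301 in limma after Benjamini-Hochberg adjustment. Over the 13276 genes tested, 0% had an adjusted p below 0.05, while 3.7% had a rising and 6.1% a falling line at an unadjusted p below 0.05. UGT1A6 had an unadjusted p below 0.05 but did not pass the test. SULT1A3, with -1.77 ± 0.61, and UGT2B17, with -1.31 ± 0.49, were the other members with an unadjusted p below 0.05. The SULT1A3 line includes its 6 h and 12 h levels, which were not well above background. For SULT1A3 and UGT2B17 the adjusted p in limma was 0.427 and 0.454. With linear and quadratic terms together, GSTA1, GSTA2, GSTA3, GSTA5 and UGT1A6 had an unadjusted p below 0.05, as did 769 of the 13276 genes, and none of the genes passed after adjustment.

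UGT1A8, an enzyme known from the intestine, was well above background on the 12 h array alone. Its level there was -4.46, and it was at least 2.93-fold higher than on the control. The bound sets the 12 h level against the lowest signal measurable on the control. At 6 h its level of -5.27 was not well above background, on an array whose faintest measurable signals lie higher.

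The UGT2 enzymes conjugate steroids, bile acids and opioids. UGT2B7, a main enzyme of morphine and steroid glucuronidation, stayed between 3.99 and 4.15 on all 6 arrays, and its differences were 0.16, 0.04, 0.05, 0.14 and 0.05. UGT2B17, known for testosterone, stood at 1.00 on the control and at 0.76, 0.76, -0.05, -0.54 and 0.10 at 1, 3, 6, 12 and 24 h. All 5 extract arrays were below the control, by at least 2-fold at 6 h with -1.05 and at 12 h with -1.54. Its other probe was not well above background on any array, and this probe also lists UGT2B15. When the probes were averaged, UGT2B17 at 6 h was 0.64.

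UGT2B10, which glucuronidates amines such as nicotine, was saturated at 3 h. It differed by -0.43, 0.20, -0.15 and -0.54 at the other times. UGT2B11 lay between 0.03 and 0.49 and UGT2B28, a steroid enzyme, between -0.50 and 0.19. UGT2A3 ranged between -0.28 and 0.11. UGT2A1, known from the olfactory epithelium, reached 0.98 at 6 h. Its control signal was 52.3 units, and measured genes with a control signal under 100 units had a median difference of 1.09 at 6 h. That median is raised by the filter, since genes this dim were measured only if they exceeded background on the dim 6 h array. UGT2B4, a bile acid enzyme, stayed between -0.32 and 0.10 on its brighter probe, but its other probe gave 0.40, 0.93, -0.71, -0.57 and 1.12. The probes of UGT2B4 therefore disagree in sign at 24 h. UGT2B15 exceeded background clearly on the 3 h and 24 h arrays alone.

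**Figure D3:**
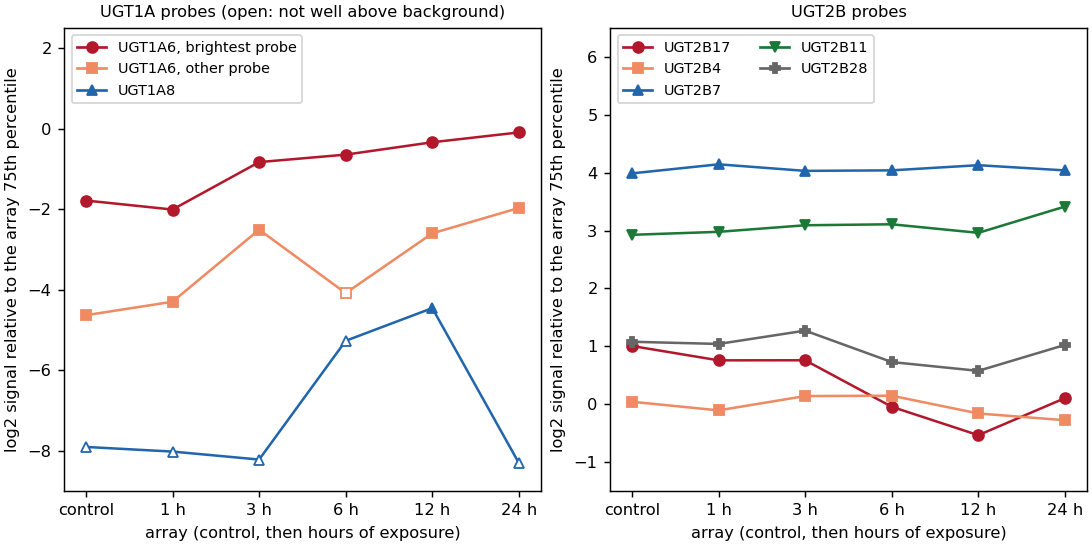
Levels of UGT1A probes (left) and UGT2B probes (right) on the 6 arrays, as log2 signal relative to the 75th percentile of the array. Open symbols were not well above background. The UGT1A6 probes end at -0.09 and -1.97 at 24 h, against -1.78 and -4.64 on the control, while UGT2B7 stays between 3.99 and 4.15.

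Alpha class glutathione transferases are the main soluble transferases of hepatocytes, and they showed the largest measured differences of the 42 genes. GSTA1, the leading hepatic form, stood at -0.07 on the control and at -0.45, -0.66, 0.30, -0.14 and -3.21 at 1, 3, 6, 12 and 24 h. The 24 h array alone was far below the others. The difference at 24 h was -3.14, so GSTA1 was 8.83-fold lower than in control cells. At the other times its differences lay between -0.59 and 0.37.

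GSTA2, its nearest copy, stood at 0.76 on the control and at 0.82, 0.81, 1.88, 1.17 and -1.47 at 1, 3, 6, 12 and 24 h. It was 2.18-fold higher at 6 h and 4.69-fold lower at 24 h. The other GSTA2 probe, which also lists GSTA1 and GSTA5, gave 1.39 at 6 h and -1.59 at 24 h. Both probes thus put the 6 h array highest and the 24 h array lowest.

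GSTA5 stood at 0.29 on the control and at 0.09, 0.06, 1.24, 0.40 and -2.60 at 1, 3, 6, 12 and 24 h. Its difference at 24 h was -2.89 and that at 6 h was 0.95. GSTA3, known as a steroid double-bond isomerase, stood at -1.44 on the control and at -1.19, -1.04, 0.07, -1.0 and -2.92. It was 2.86-fold higher at 6 h, with 1.51, and 2.80-fold lower at 24 h, with -1.48. GSTA4, which clears aldehydes of lipid peroxidation, was the exception in the class, with -0.13, -0.13, -0.29, -0.33 and -0.49.

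The 24 h differences of GSTA1, GSTA2, GSTA3 and GSTA5 all exceeded the probe-pair SD of 0.691. They kept their direction and at least 2-fold size under all 7 alternatives of processing, with GSTA1 between -3.2 and -2.55. Dropping the filter on dim probes could not change these values. The mean of probes could not change those of GSTA1, GSTA3 and GSTA5, which have no other probe. At 6 h GSTA2 was 0.10 under normexp background correction, 0.88 under quantile normalization and 0.98 under cyclic loess, all below 2-fold, while GSTA3 stayed between 1.29 and 1.61. The GSTA2 and GSTA5 probes share sequence, and a second GSTA2 probe lists GSTA1 and GSTA5, so GSTA1, GSTA2 and GSTA5 may not be separate counts of a pattern. Of the 4 hepatocyte markers measured at 24 h, TTR was -1.29, APOB -0.41, FGB 0.02 and HNF4A 0.60, and TTR was 1.60 at 6 h. Other probes of TF gave -1.03, -2.67 and -2.23 at 24 h. The part of these markers in the GSTA values was not tested.

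GSTA1 and GSTA2 also share most of their upstream sequence, which is shown because both genes were lower at 24 h. The 250 bases before each start site, from RefSeq on GRCh38.p14, lie at chr6:52803817-52804066 for GSTA1 and chr6:52763476-52763725 for GSTA2, both on the minus strand. They are identical at 243 of 250 bases, and capitals mark the 7 that differ.
GSTA1: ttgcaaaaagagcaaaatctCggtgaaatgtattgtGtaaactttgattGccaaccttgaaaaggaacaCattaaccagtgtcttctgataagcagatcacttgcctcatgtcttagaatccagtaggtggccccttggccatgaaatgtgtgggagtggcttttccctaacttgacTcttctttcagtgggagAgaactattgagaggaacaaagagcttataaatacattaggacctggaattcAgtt
GSTA2: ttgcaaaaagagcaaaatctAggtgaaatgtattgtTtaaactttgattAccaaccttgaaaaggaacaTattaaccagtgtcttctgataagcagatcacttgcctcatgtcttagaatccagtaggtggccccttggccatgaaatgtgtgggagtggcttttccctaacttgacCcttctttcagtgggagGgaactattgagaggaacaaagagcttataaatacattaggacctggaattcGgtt
The promoter windows of GSTA3, GSTA4 and GSTA5 matched that of GSTA1 at 32.9 to 34.1% of bases in the best ungapped alignment. An alignment without gaps can miss shared stretches that lie at different offsets, so it cannot show that these windows are unrelated. Promoter windows of 300 bases were found for 37 start sites of member genes and searched on both strands. The dioxin response element core GCGTG was in 10 of the 37 windows, against 36.5% of 35116 RefSeq promoters, and 1 of the UGT1A6 windows held it upstream of the start site. The antioxidant response element core TGACNNNGC was in 10 windows, against 13.3% of all promoters. The AP-1 motif TGANTCA was in 1 window, that of GSTP1, where it overlaps an antioxidant core, against 7.71% of all promoters. None of the 3 motifs was in the GSTA1 or GSTA2 window.

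**Figure D4:**
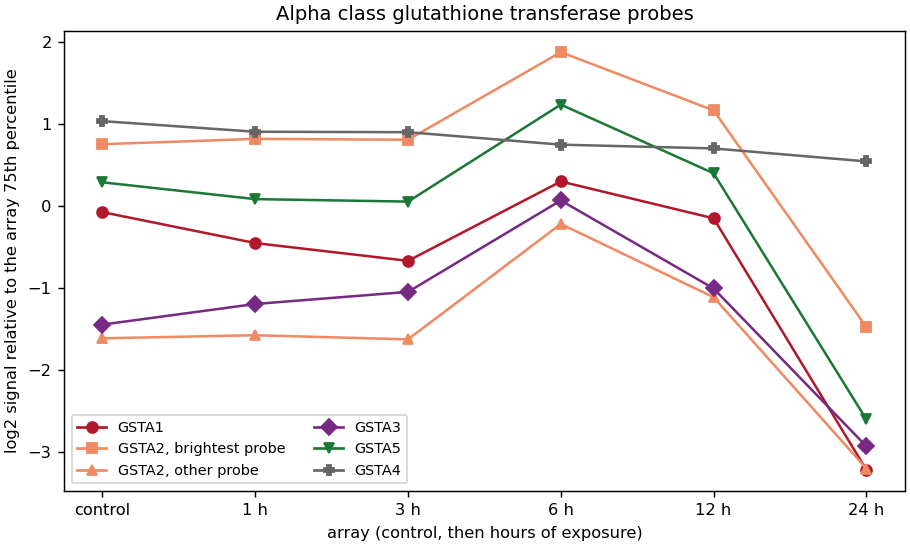
Levels of the 6 alpha class probes on the control and at 1, 3, 6, 12 and 24 h, as log2 signal relative to the 75th percentile of the array. The probes of GSTA1, GSTA2, GSTA3 and GSTA5 peak at 6 h and drop to their lowest at 24 h, whereas GSTA4 ranges between 0.55 and 1.04.

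Mu class genes, whose products detoxify epoxides and aromatic electrophiles, differed less. GSTM2 stood at -1.73 on the control and at -1.75, -1.97, -1.47, -2.86 and -2.88 at 1, 3, 6, 12 and 24 h. The 2 latest arrays were lowest, 2.19-fold and 2.21-fold lower than the control. Under normexp correction GSTM2 at 12 h was 0.11. GSTM1, read by 9 or 10 kept spots of 1 probe, differed by 0.03, 0.12, -0.49, -0.61 and -0.03, and the SD between its spots lay between 0.0439 and 0.0927 on each array. Its probe also lists GSTM4, whose own differences lay between -0.19 and 0.44. GSTM3, which is also known from brain and testis, reached -0.76 at 24 h, and GSTM5 reached -0.99.

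GSTT2, a theta class enzyme known to use organic hydroperoxides and sulfate esters, stood at -1.78 on the control and at -2.18, -1.75, -0.10, -0.63 and -2.01 at 1, 3, 6, 12 and 24 h. The 6 h and 12 h arrays stood apart from the other 4. GSTT2 was 3.20-fold higher at 6 h and 2.21-fold higher at 12 h, and a second probe gave 1.97 and 1.18. The genome holds a near copy of GSTT2, so the signal may include its transcript. GSTT1 differed by at most 0.39, at 6 h.

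The remaining soluble classes stayed below 2-fold. GSTZ1, the enzyme of tyrosine breakdown that isomerizes maleylacetoacetate, reached 0.74 at 6 h. GSTO1, a dehydroascorbate reductase, reached 0.73 at 12 h, and GSTK1, a mitochondrial enzyme, reached 0.78 at 3 h. GSTP1, which normal hepatocytes hardly express, lay between -0.44 and 0.58 and was not well above background at 6 h. GSTO2 lay between -0.52 and -0.19 where it was measured.

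Of the microsomal enzymes, MGST2, which can also make leukotriene C4, stood at 4.53 on the control and at 4.0, 4.09, 5.04, 4.19 and 3.45 at 1, 3, 6, 12 and 24 h. The 24 h array was lowest, 2.12-fold below the control. MGST3 was below the control on all 5 extract arrays, with -0.88 at 24 h, and MGST1, the form of the endoplasmic reticulum and mitochondrial outer membrane, was highest at 12 h, with 0.90.

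SULT2A1, which sulfates dehydroepiandrosterone and bile acids, stood at 1.5 on the control and at 1.41, 1.09, 1.43, 1.34 and 0.44 at 1, 3, 6, 12 and 24 h. The 24 h array was lowest, 2.09-fold below the control, and the 4 earlier extract arrays differed from the control by -0.41 to -0.07. Its other probe gave -0.60, -0.75 and -0.66 at 6, 12 and 24 h, all below 2-fold.

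SULT1E1, which inactivates oestrogens by sulfation, was well above background on the control alone. Its level was -3.67 there, and its probe is the last of the sequences printed at the start. At 1 h it was at least 5.76-fold lower, at 3 h at least 7.03-fold, at 12 h at least 2.53-fold and at 24 h at least 7.18-fold, with no bound at 6 h. These bounds set the control level against the higher of the probe's own signal and the faintest measurable signal on each extract array. All of them rest on 1 spot of the control array.

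SULT1A2, a phenol sulfotransferase, stood at 4.97 on the control and at 4.80, 4.01, 6.46, 6.06 and 4.08 at 1, 3, 6, 12 and 24 h. It was 2.81-fold higher at 6 h and 2.12-fold higher at 12 h, and the 3 h and 24 h arrays were lowest, with -0.96 and -0.89. SULT1A2 is among the 8 members with a control signal of at least 10000 units. All genes that bright had a median difference of -0.11, -0.17, 0.77, 0.53 and -0.21 at 1, 3, 6, 12 and 24 h, and the bright members had medians of -0.15, -0.27, 0.53, 0.46 and -0.43. Array brightness was lowest at 6 h and 12 h and highest at 3 h and 24 h. Under quantile normalization SULT1A2 was 0.46 at 6 h and 0.42 at 12 h, and under normexp correction SULT1A2 at 6 h was -0.01. The part of array brightness in its differences was not tested.

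**Figure D5:**
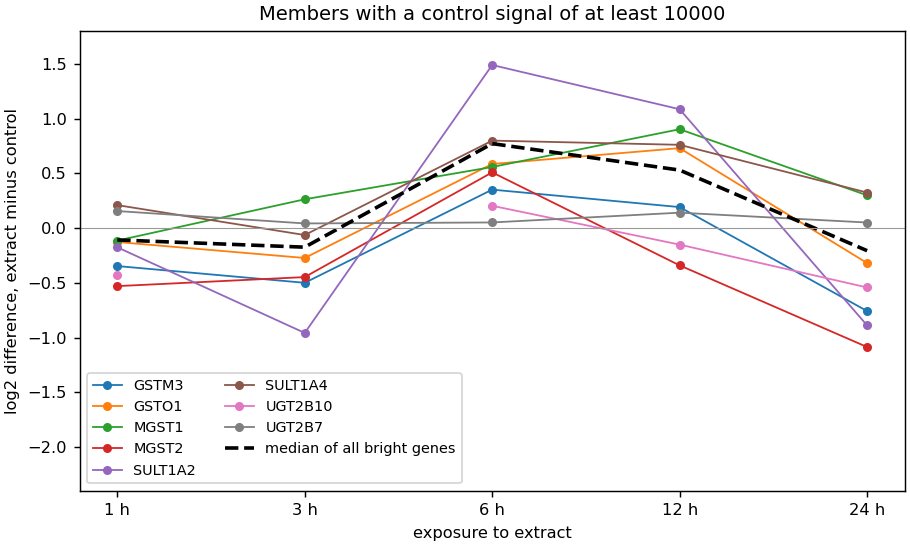
Log2 differences, extract minus control, of the 8 members with a control signal of at least 10000 units, with the median of all genes of that brightness as a dashed line. SULT1A2 has its highest value, 1.49, on the 6 h array, where the dashed line also peaks at 0.77. UGT2B10 has no value at 3 h, where it was saturated.

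SULT1A1, the main phenol sulfotransferase of liver, was above the control on all 5 extract arrays, by 0.56, 0.47, 0.78, 0.44 and 0.61, always below 2-fold. SULT1A3 and SULT1A4 encode the same catecholamine enzyme in near-identical copies, and the values under either name are uncertain. The SULT1A3 probe, which lists no transcript that the gene table held, differed by -1.56 at 24 h, whereas the SULT1A4 probe differed by 0.33. Their control signals were 38.6 and 17900 units, and why the probes disagree was not tested. SULT1B1, a thyroid hormone sulfotransferase, was -0.90 at 24 h, and SULT1C1 was -0.63. SULT1C2 was -0.84 at 3 h. SULT2B1, known for cholesterol and pregnenolone, and SULT4A1, a brain form without a known activity, lay between -0.58 and 0.21 where they were measured.

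The steps that feed the 3 reactions were described by gene lists. Of 5 genes of UDP-glucuronate supply, 1 was at least 2-fold lower at 6 h and 12 h, beside 10% and 8.08% of all genes. It was UGDH, the dehydrogenase that makes UDP-glucuronate, with 0.92, 0.80, -1.86, -1.49 and -0.89 at 1, 3, 6, 12 and 24 h, and its second probe gave -1.43 at 6 h and -1.24 at 12 h. SLC35B1, a nucleotide sugar carrier homologue, was at most 0.78, at 6 h. UGDH was thus above the control early and below it later, while UGT1A6 was above it at the later times. Of the 7 genes of sulfate donor supply, 5 were measured at 6 h, where SLC35B2, a PAPS carrier, was 1.03 and PAPSS1, a PAPS synthase, was -1.5. BPNT1, which clears the by-product of PAPS, was 1.48 at 6 h and 1.77 at 12 h, but its other probe gave -1.72 and -0.60.

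Of the 10 glutathione supply genes, 1 was higher and 2 were lower at 6 h, and 1 was lower at 24 h, beside 23.2% higher and 10% lower at 6 h and 9.56% lower at 24 h among all genes. SLC7A11, the cystine carrier, was -2.72 at 6 h, where its other probes gave -3.71 and -3.13, and CTH, which makes cysteine, was -2.23. GSR, glutathione reductase, was 1.46 at 6 h, but its other probe gave -0.89. GCLC, the catalytic subunit of glutamate-cysteine ligase, was -1.14 at 24 h, whereas its other probe gave 0.49. Among 3 deconjugating genes, GUSB, the lysosomal beta-glucuronidase, was 1.26 at 6 h and 1.14 at 12 h, and SUMF1, which activates sulfatases, was 0.73 at 6 h. Among 8 export pumps, ABCB1 was 2.37 at 24 h. ABCC6 was 1.65 and 1.63 at 6 and 12 h, but its other probe gave 0.50 and 0.14. ABCC5 was -1.13 at 3 h, where its other probe gave -0.02. ABCC2, the canalicular pump for glucuronides and glutathione conjugates, was above 0 at 3, 6, 12 and 24 h, with 0.44, 0.46, 0.67 and 0.93.

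Of 11 regulators, 3 were higher and 3 lower at 6 h, and 3 were higher and 1 lower at 12 h. Among all genes the shares were 23.2% and 10% at 6 h and 12.6% and 8.08% at 12 h. The count lower at 6 h and the count higher at 12 h stood furthest above these shares. They rest on few genes and were not tested. AHRR, the repressor that the aryl hydrocarbon receptor induces, was -0.31, 1.41, 4.34, 3.51 and 1.83 at 1, 3, 6, 12 and 24 h. Its other probe gave -0.38, 1.90, 3.58, 3.08 and 2.13. AHR, the receptor itself, was -1.91 at 6 h. CYP1A1, the standard target of that receptor, was 0.44, 2.75, 3.54, 3.87 and 3.14. UGT1A6, AHRR and CYP1A1 were all above the control on the arrays from 3 h onward and shared those arrays. TIPARP, another target of the receptor, was -0.73, -0.09, -0.80, -0.40 and -0.59 and so below the control on all 5. NR1I3, a nuclear receptor that regulates drug metabolism, was 1.65 and 1.31 at 6 and 12 h. The control signals of NR1I3 and AHRR were 46.3 and 19.9 units. Among measured genes with a control signal under 100 units, 55.1% were at least 2-fold higher at 6 h and 15.8% at 12 h. The 6 h share covers 637 genes, against 2601 measured at 1 h. A gene this dim had to exceed background on the dimmest array to be measured, so the filter itself raises the 6 h share. Of 5 readouts of the receptor and of NRF2, a factor that also regulates many transferases, 4 were measured at 6 h. There 2 were higher, namely CYP1A1 and HMOX1, the haem oxygenase, beside 23.2% of all genes. HMOX1 was -0.14, 0.42, 1.70, 0.90 and -0.37. TXNRD1 was lower at 12 h and 24 h, with -2.83 and -1.79. NQO1 was 0.17, 0.44, -0.87, -0.72 and -0.58. Of 9 other conjugating enzymes, 7, 4 and 7 were measured at 3, 12 and 24 h. GSTCD was lower at these times, beside 3.1%, 8.08% and 9.56% of all genes, but its other probe gave 0.65, -0.46 and 0.64.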

How the data were processed

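Per the labels' protocols, purification used an RNeasy kit and labelling followed linear amplification with an Agilent kit. The dye in the labels is Cy5, whereas the scanner files hold green channel columns alone, per the file headers. The deposited scanner files hold intensity values per spot, including a background-corrected processed signal, not scaled between arrays. The authors' deposited value table also holds intensity, unscaled, and matched the median spot signal minus local background (tolerance 0.51 units) in at least 99.3% of its 35646 probes per array. The genome build, like the version of the scanning software, is not given in the sources used here.

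Processed signals were averaged over the spots of a probe after taking log2, and log2 of each array's 75th percentile was subtracted. The 1639 control spots of each array were excluded, as were 105 probes with every spot flagged as an outlier on some array. The brightest probe on average represented a gene. Genes other than the members were named through RefSeq accessions (GRCh38.p14, names only), which left 25751 of 41000 probes named. Members kept their array names.

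The error of a difference was the SD between different probes of a gene. Trends were fitted with limma 3.58.1 in R 4.3.3 for genes that exceeded background on 3 or more arrays, and p-values were adjusted by the Benjamini-Hochberg method with a threshold of 0.05. Residuals are scatter about a line, with 4 residual degrees of freedom. Data simulated over 13276 genes had independent noise for each gene and array, without the shifts that genes of a real array share. The counts may therefore not hold for these arrays. On the simulated data, the trend test made 5 false calls and found none (0) of the 50 genes changed 2-fold. It found 7 of the 50 changed 4-fold, 26 of the 50 changed 8-fold and 40 of the 50 changed 32-fold. The number of arrays limits the precision.

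The members and the gene lists were chosen with earlier results of these data known. Genes named with values were UGT1A6, GSTA1 and SULT2A1, members at least 2-fold apart at 2 or more times, the largest difference in each family, and list genes at least 2-fold apart at 2 or more times or with the 2 largest differences in a list. Other members are given by range or, where they bear on a family's pattern, by value, as chosen after their values were seen. Some list genes covered by this rule are not reported here. NQO1, TIPARP, HMOX1, ABCC5, ABCC2, GSR, SLC35B2 and GCLC were named after their values were seen. Alternatives were quantile normalization, median scaling, normexp correction with an offset of 50, the deposited table, the mean of a gene's probes, no filter on dim probes, other time terms, each array left out, and 2 added after seeing the data, cyclic loess and a fit without the 6 h and 12 h arrays.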

Additional observations from a re-analysis of the deposited data

Results flagged for a closer look

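GSTA2 and GSTA3 were at least 2-fold higher at 1 time and at least 2-fold lower at another. GSTA2 differed from the control by 1.12 at 6 h and by -2.23 at 24 h on the log2 scale. GSTA3 differed by 1.51 at 6 h and by -1.48 at 24 h. With 1 array at each time the difference between the times was not tested. The 6 h array was the dimmest of the 6. At 6 h GSTA2 was 0.10 under normexp correction with its offset, 0.88 under quantile normalization and 0.98 under cyclic loess, so its call at 2-fold depended on these settings. GSTA3 was 1.29 at 6 h under normexp.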

How the results depend on the processing

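The 20 member differences of at least 2-fold had 140 values under the alternatives, of which 121 stayed at least 2-fold in the same direction. Both counts include values that could not change. Dropping the filter on dim probes leaves each of these differences as it was, and so does the mean of probes for genes with 1 probe. The 3 that reversed were SULT1A2 at 6 h, with -0.0086, and GSTM2 at 12 h, with 0.11, both under normexp correction, and UGT2B17 at 6 h, with 0.64 for the mean of its probes, which includes a probe not well above background. Members at least 2-fold higher at 6 h numbered 3 under quantile normalization and 8 under normexp, against 5. Under normexp, 5 were lower at 6 h, against 1, 7 were higher at 12 h, against 3, and 1 was lower at 12 h, against 2. With the mean of probes, 1 was higher at 3 h, 0 were lower at 6 h and 1 was lower at 12 h. Without the filter on dim probes, the lower members numbered 1, 1, 3 and 4 at 1, 3, 6 and 12 h, and the deposited table gave 1 at 3 h. The cause of these changes was not tested. At 24 h, 1 member was higher under every alternative and 6 to 9 were lower.

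The UGT1A6 line had a positive slope in all 15 alternatives that give one, each with an unadjusted p below 0.05, and gained between 1.69 and 2.25 with 1 array left out. Its adjusted p in limma ranged between 0.0391 and 0.939 over the alternatives. With each array left out in turn, 0 members passed after adjustment in limma, and 1 to 6 had an unadjusted p below 0.05. In the fit without the 6 h and 12 h arrays, chosen after seeing the data and resting on 4 arrays, 4.53% of genes and 4 members passed in limma. They were GSTA1, with -3.22 ± 0.42 (SE, adjusted p = 0.0090), GSTA5, with -3.0 ± 0.49 (adjusted p = 0.0151), GSTA2, with -2.39 ± 0.49 (adjusted p = 0.0330), and UGT1A6, with 1.91 ± 0.41 (adjusted p = 0.0391). The calls of these 4 genes thus rest on which arrays enter the fit.

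No paired analysis was possible because each group held 1 array. Slide or scan as a block was not run, since the file headers used here give neither. On the 6 h array 10 of the 42 members were not well above background and so not measured. Among them, UGT1A8 and UGT2B15 were not well above background on the control either, and SULT1E1 was on no extract array.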
